A study of Caenorhabditis elegans with 2 samples.

Results

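Translation initiation and elongation factors were followed on 2 oligonucleotide arrays of whole Caenorhabditis elegans. The a-SWCNT array held RNA of worms of the wild-type strain N2 that had grown with a-SWCNT at 500 μg/mL, named in the labels as amide single-walled carbon nanotubes. The control array held RNA of N2 worms grown without nanotubes. In both groups synchronised L1 larvae were cultured at 22 °C for 48 hr, and the labels give the stage as L4 for each sample. Each group had 1 array, which limits the precision, and there are neither replicates nor p-values. The members were all probe sets that the platform annotation assigns to 1 gene with a symbol starting with eif-, eef-, ife-, ifg-, iff- or iftb-. They were 52 of 22548 worm probe sets and covered 36 of the 17118 genes named by such probe sets, 30 of them initiation factors and 6 elongation factors. No symbol started with iftb-, and the gene for the beta subunit of eIF2 was listed as eif-2beta. A further 3 genes with such symbols in the reference gene table, eif-1, eif-2alpha and eif-3.L, had no probe set of their own and were not analysed here.

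Initiation factors bring the small ribosomal subunit, the initiator tRNA and the capped end of an mRNA together and place the ribosome on the start codon. Elongation factors then deliver each aminoacyl-tRNA, move the ribosome along the mRNA codon by codon and recharge the carrier with GTP. In worms many mRNAs receive a spliced leader whose cap is trimethylated, and the family of cap-binding proteins (ife) differs in which caps its members accept and in the tissues that use them.

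Signals are intensities per probe set. The a-SWCNT array was dimmer on average, with a trimmed mean of 84.3 against 211 on the control array, so its signals were multiplied by 2.503 before any comparison, and all a-SWCNT signals below are scaled in this way. A probe set was called measured where its signal reached a floor of 56.7, which is the pooled median of the worm signals. Log2 ratios are of a-SWCNT over control, with signals under the floor set to it. Of the 52 probe sets, 42 were measured on both arrays, 5 on 1 array and 5 on neither. The 5 that were measured on neither array belonged to eif-2Bdelta, eif-2Bepsilon and eif-4A3, which had no other probe set, and to eef-1B.2 and ifg-1, which did. A ratio with 1 side under the floor is a bound and is given as "at least". Brightness differs between probe sets for reasons of probe sequence, so signals are compared between arrays and not between genes.

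**Figure D1:**
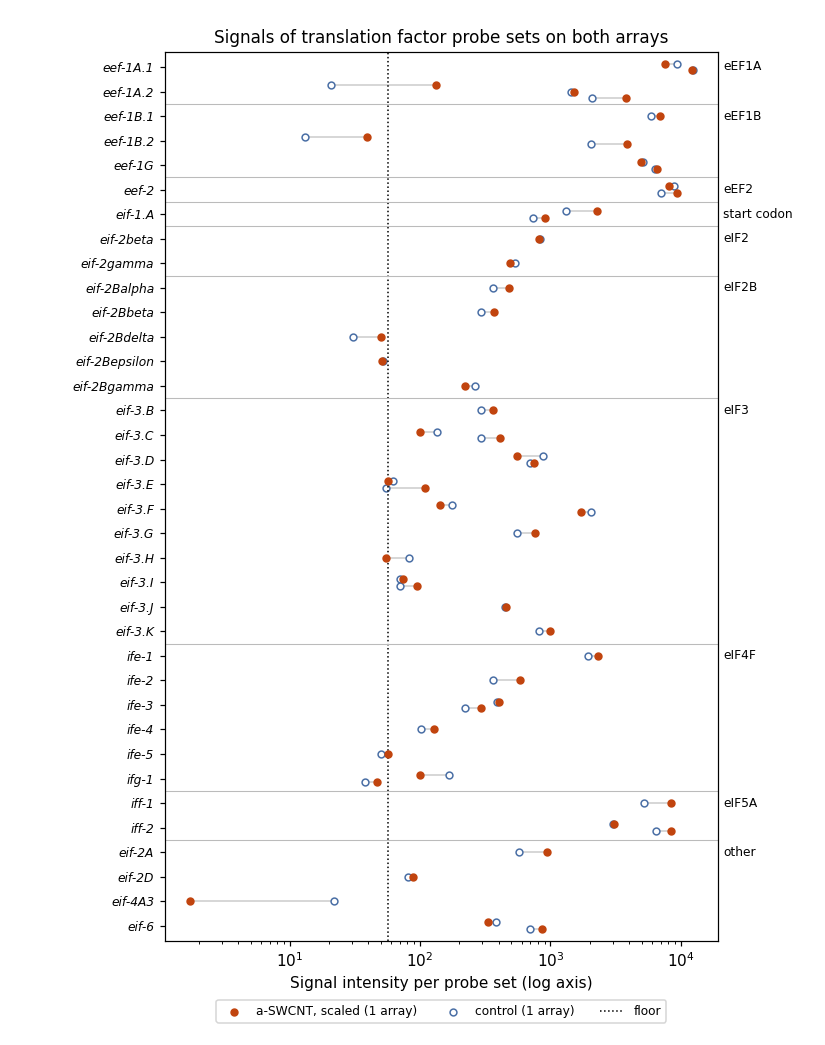
Signal intensity of each of the 52 probe sets (log axis) on the a-SWCNT array after scaling (filled) and on the control array (open), with 1 array per group, by gene and complex. The dotted line is the floor of 56.7, and most pairs of points lie close together, while 1 pair of eef-1A.2, 1 of eef-1B.2 and the pair of eif-4A3 are far apart at signals at or near the floor or below it.

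Most translation factors were slightly brighter on the a-SWCNT array. Of the 33 genes measured, 25 lay above and 8 below 0, at a median log2 ratio of 0.22 (1.16-fold). With the arrays scaled to equal hybridisation controls, 18 of 32 lay above 0, while the median of all measured probe sets was also lower, at -0.19. With the scaling used, the 9382 measured genes of the array had a median of -0.02. Of them 47.8% lay above 0, against 75.8% of the factor genes. Differences were mostly small: with the scaling and floor used, 0 of the 33 genes were 2-fold different in either direction by their mean over probe sets. This count depends on both settings. With a floor at the 25th percentile eef-1A.2 (1.21) and eef-1B.2 (1.10) were past 2-fold, and with equal 75th percentiles eef-1B.2 (1.04) was. At 1.5-fold, with the scaling and floor used, 5 genes were higher (eef-1A.2, eef-1B.2, eif-2A, ife-2 and iff-1) and 1 was lower (ifg-1). The same thresholds over all measured genes gave 8.04% of genes past 1.5-fold on the higher side and 11.6% on the lower side, and 1.42% and 2.88% at 2-fold. The calls of factor genes at 1.5-fold (log2 0.585) also depended on the settings. With equal hybridisation controls eif-2A (0.54), ife-2 (0.51) and iff-1 (0.51) fell short of it. With probe sets measured on both arrays only, eef-1A.2 (0.48) did. With equal medians eif-1.A (0.63) was past it, and with a floor at the 25th percentile ifg-1 (-0.22) was not.

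By probe set, 8 of 47 (17.0%) were higher by at least 1.5-fold in a-SWCNT worms, against 8.22% of all measured worm probe sets. These 8 probe sets belonged to 7 genes, so the count is not one of independent values. At least 1.5-fold lower were 2 of 47 (4.26%), 1 each of eif-3.D and ifg-1, against 14.3% of all measured probe sets. At 2-fold, 1 probe set of eef-1A.2 was higher (background 1.36%) and 0 were lower (background 4.43%). No test can be made of these shares with 1 array per group.

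Probe sets of the same gene give a guide to error within the arrays. Over 1625 genes of the array with 2 measured probe sets, the log2 ratios of the pair differed by a median of 0.42, with a 95th percentile of 1.37. The 13 factor genes with more than 1 measured probe set spanned a median of 0.49 between their probe sets and at most 1.13, in eef-1A.2. In 6 of the 13, namely eef-1G, eef-2, eif-3.C, eif-3.D, eif-3.E and eif-6, the probe sets lay on opposite sides of 0. Letter suffixes in the identifier mark 31 of the 52 probe sets, which may bind more than 1 transcript.

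**Figure D2:**
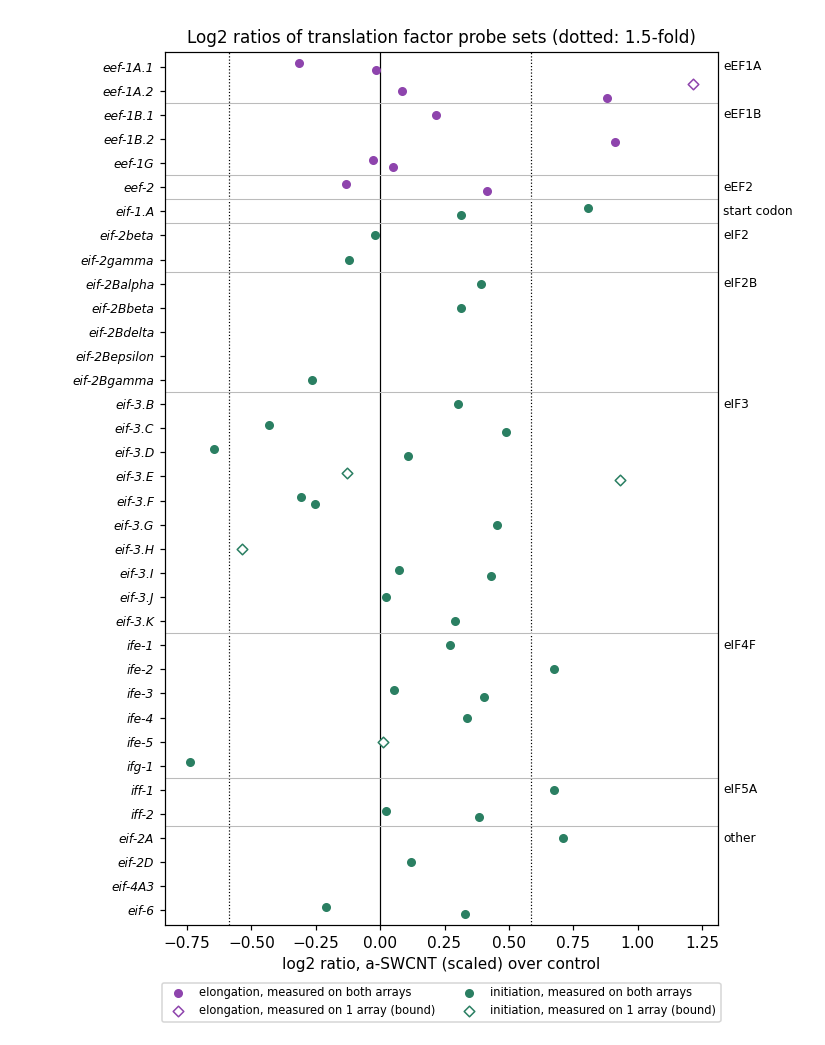
Log2 ratio of a-SWCNT (scaled) over control for each of the 47 measured probe sets by gene and complex. Diamonds are bounds, in which only 1 array reached the floor, dotted lines mark 1.5-fold, and 32 probe sets lie above and 15 below 0.

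The class medians of initiation and elongation factors differed by an amount whose size depended on the processing. Its sign changed only without letter-suffix probe sets. Over the 27 initiation factor genes measured the median was 0.23, with 20 above and 7 below 0 and a range of -0.74 to 0.71. Over the 6 elongation factor genes it was 0.18, with 5 above and 1 below 0 and a range of -0.16 to 0.91. The difference of the medians, initiation minus elongation, was 0.05. It was 0.19 after quantile normalisation, 0.25 with loess centring and -0.43 without letter-suffix probe sets, and it cannot be tested with 1 array per group. The value of -0.43 rests on a small class, since only eef-1A.2 (0.09) and eef-1B.2 (0.91) were then left as elongation factors. The SDs between genes were 0.36 over 27 initiation factor genes and 0.42 over 6 elongation factor genes.

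Signals of each class are given here for the comparison between arrays. The 36 measured probe sets of initiation factors had a median signal of 432 on the a-SWCNT array and 373 on the control array. Those of elongation factors, 11 in number, had a median of 6598 on the a-SWCNT array and 5900 on the control array. Summed over probe sets, initiation factors gave 38127 on the a-SWCNT array and 30603 on the control array, a 1.25-fold higher sum. The summed signal of elongation factors was 65056 on the a-SWCNT array and 60600 on the control array, 1.07-fold higher. The sums rest on the brightest probe sets, iff-1 and iff-2 in the first class and eef-1A.1 and eef-2 in the other. On the a-SWCNT array iff-1 had 8359 and the brighter probe set of iff-2 had 8387, against 5233 and 6422 on the control array. The iff genes can also be classed as elongation factors, so the contrast of the sums depends on that choice.

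Bright probe sets in general had higher ratios. All 1509 worm probe sets with a geometric mean signal of at least 1000 had a median of 0.17, against -0.04 over all 12020 measured probe sets, and 64.7% of them lay above 0. The 16 factor probe sets in this range had a median of 0.15, with 68.8% above 0. Among them the 10 probe sets of elongation factors had a median of 0.07, with 6 above 0, and the 6 of initiation factors a median of 0.33, with 5 above 0. These 6 include the probe sets of iff-1 and iff-2, so this contrast also depends on how the iff genes are classed. At least 1.5-fold higher were 4 of the 16, against 12.9% of all bright probe sets, and 0 were at least 1.5-fold lower, against 8.68%. The 30 dimmer probe sets of initiation factors had a median of 0.11, with 20 above 0. The median of the bright elongation factor probe sets thus lay below that of all bright probe sets, a difference that cannot be tested here. The part of brightness in the ratios was not tested beyond the loess alternative, which removes its trend and put the elongation median at -0.04 and the initiation median at 0.22.

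**Figure D3:**
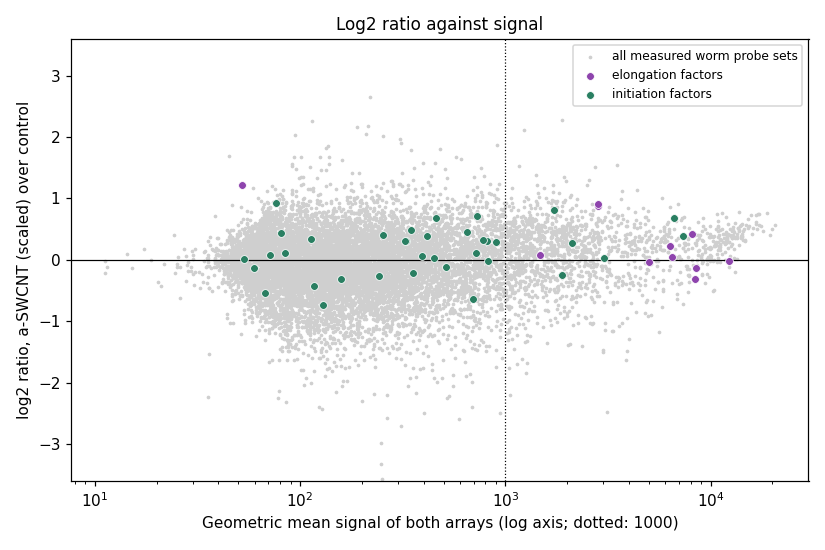
Log2 ratio of a-SWCNT (scaled) over control against the geometric mean signal of the arrays (log axis) for all 12020 measured worm probe sets (grey), elongation factors (purple) and initiation factors (green). The dotted line marks a signal of 1000, above which 64.7% of all probe sets lie above 0, and all but 1 of the elongation factor probe sets lie to its right.

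The elongation factor eEF1A, the GTPase that carries aminoacyl-tRNA to the ribosome, is encoded in worms by eef-1A.1 and eef-1A.2, whose coding sequences are closely similar, so that a probe set of one may also pick up the other. For eef-1A.1 the probe sets had 7526 and 12188 on the a-SWCNT array, against 9361 and 12313 on the control array. Their log2 ratios were -0.31 and -0.01, and eef-1A.1 was the only elongation factor with a mean below 0, at -0.16. For eef-1A.2 the brighter probe sets had 1512 and 3817 on the a-SWCNT array, against 1424 and 2075 on the control array, with log2 ratios of 0.09 and 0.88. The third probe set of eef-1A.2 had 131 on the a-SWCNT array and 20.7 on the control array, below the floor, and was at least 2.32-fold higher. The mean over the 3, a lower bound because of the third, was 0.73. The value of eef-1A.2 depends on the probe set: the one without a letter suffix gave 0.09, and the other two, which may also bind similar transcripts, gave the high ratios.

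The exchange factor eEF1B reloads eEF1A with GTP. Its subunit gene eef-1B.2 had 3875 on the a-SWCNT array and 2058 on the control array, a log2 ratio of 0.91 or 1.88-fold. Its rank against eef-1A.2 is not settled, since the mean of eef-1A.2 holds a bound, and with a floor at the 25th percentile eef-1A.2 was at 1.21 and eef-1B.2 at 1.10. The other probe set of eef-1B.2 was below the floor on both arrays, at 38.9 on the a-SWCNT array and 13.2 on the control array. The related subunit gene eef-1B.1 had 6861 on the a-SWCNT array and 5900 on the control array (0.22). The gamma subunit gene eef-1G was level, with 4988 and 6598 on the a-SWCNT array, against 5091 and 6372 on the control array, and ratios of -0.03 and 0.05. The genes eef-1B.2 and eef-1G of this complex differed by more than the median distance between probe sets of 1 gene, 0.42. They differed by less than its 95th percentile of 1.37, and by less than the 1.13 between probe sets of eef-1A.2. A difference between the subunits is therefore not established.

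The translocase eEF2 moves the ribosome by a codon after each peptide bond. The probe sets of eef-2 had 8149 and 9410 on the a-SWCNT array, against 8931 and 7054 on the control array. Their log2 ratios of -0.13 and 0.42 pointed in opposite directions, with a mean of 0.14. Under equal hybridisation controls (-0.03) and loess centring (-0.09) this mean lay below 0, and the value of eef-1G also changed sign between scalings.

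Among initiation factors, eif-1.A encodes eIF1A, which helps the small subunit scan for the start codon. Its probe sets had 2287 and 912 on the a-SWCNT array, against 1309 and 733 on the control array. Both were higher, at 0.81 and 0.31, with a mean of 0.56 (1.47-fold). With eef-1A.2, eif-3.I, ife-3 and iff-2 it belongs to the genes whose probe sets all lay above 0.

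The trimer eIF2 brings the initiator tRNA to the ribosome, and its alpha subunit, not analysed here, is the site where stress kinases slow initiation. The beta subunit gene eif-2beta had 816 on the a-SWCNT array and 828 on the control array (-0.02). The gamma subunit gene eif-2gamma had 492 on the a-SWCNT array and 534 on the control array (-0.12). Both subunits were level within the distance between probe sets, and both signs changed between scalings.

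The complex eIF2B exchanges the GDP of eIF2 for GTP and is the target that phosphorylated eIF2 blocks. Of its 5 subunit genes 3 were measured. The alpha subunit gene eif-2Balpha was the highest, with 477 on the a-SWCNT array and 364 on the control array (0.39), and eif-2Bbeta followed at 0.31. The gamma subunit gene eif-2Bgamma was the lowest, with 221 on the a-SWCNT array and 265 on the control array (-0.26). The catalytic subunit gene eif-2Bepsilon, with 50.7 on the a-SWCNT array and 52.0 on the control array, and eif-2Bdelta, with 49.7 and 30.3 in the same order, did not reach the floor on either array. Of the 3 measured, 2 lay above and 1 below 0, each nearer to 0 than the median distance between probe sets of 1 gene.

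The scaffold eIF3 binds the small subunit and recruits the other factors. All 10 of its genes among the members were measured, 7 above and 3 below 0, at a median of 0.14. By gene mean the highest was eif-3.G, with 765 on the a-SWCNT array and 558 on the control array (0.46). The lowest was eif-3.H, below the floor at 54.996 on the a-SWCNT array and at 82.2 on the control array, at least 1.45-fold lower. Between them lay genes whose probe sets went apart.

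The probe sets of eif-3.D, a subunit that can itself contact the cap in human cells, had 558 and 744 on the a-SWCNT array, against 871 and 690 on the control array. The first was 1.56-fold lower (-0.64) and the other was at 0.11. For eif-3.E, a dim gene, the probe sets had 108 and 56.7 on the a-SWCNT array, against 54.3 and 62.1 on the control array, giving at least 1.91-fold higher in one and at least 1.09-fold lower in the other. The probe sets of the core subunit gene eif-3.C gave 0.49 and -0.43. The direction of these 3 genes rests on which probe set is read. In eif-3.F, by contrast, both probe sets were lower by similar amounts, at -0.31 and -0.25, and in eif-3.I both were higher, at 0.07 and 0.43. The remaining subunit genes eif-3.B (0.30), eif-3.J (0.02) and eif-3.K (0.29) had 1 probe set each.

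The cap complex eIF4F joins a cap-binding protein to the scaffold eIF4G. All 5 cap-binding ife genes lay above 0, also under the other scalings, except that ife-5 was not measured with equal hybridisation controls, while the gene of the scaffold was below 0. The highest was ife-2, a form known from somatic tissues, with 582 on the a-SWCNT array and 364 on the control array (0.68). For ife-1, known for its role in sperm formation, the signal was 2330 on the a-SWCNT array and 1930 on the control array (0.27). For ife-3, the form most similar to the mammalian protein, the probe sets gave 402 and 291 on the a-SWCNT array, against 387 and 220 on the control array, at 0.06 and 0.40. The signal of ife-4 was 127 on the a-SWCNT array and 100.8 on the control array (0.34). For ife-5 the signal was 57.2 on the a-SWCNT array, just above the floor, and 49.8 on the control array, just under it, which gives no usable size. Except for ife-2, each was nearer to 0 than the median distance between probe sets of 1 gene.

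The scaffold gene ifg-1, which bridges the cap-binding protein and the ribosome, had a mean below that of the other factor genes with the floor used. Its measured probe set had 99.96 on the a-SWCNT array and 167 on the control array, 1.67-fold lower (-0.74). The other probe set of ifg-1 was below the floor on both arrays, at 46.3 on the a-SWCNT array and 37.9 on the control array, in the opposite order. With a floor at the 25th percentile, which lets this second probe set count, the mean of ifg-1 was -0.22. The low value therefore rests on 1 probe set.

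The iff genes encode homologues of eIF5A, named as an initiation factor and now known to help the ribosome through difficult stretches during elongation. In worms iff-1 is needed for germ cell proliferation and iff-2 acts in the soma. For iff-1 the signal was 8359 on the a-SWCNT array and 5233 on the control array (0.68). The probe sets of iff-2 had 3060 and 8387 on the a-SWCNT array, against 3009 and 6422 on the control array, at 0.02 and 0.39. Both genes were above 0 under each of the 6 scalings that bring the arrays together. Counted as elongation factors, they left the class medians at 0.23 for initiation and 0.21 for elongation.

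Listed markers of germline and oocytes were mostly lower on the a-SWCNT array. For comparison, 4898 of all 9382 measured genes lay below 0. Of 17 markers, all measured, 12 lay below and 5 above 0, at a median of -0.47. Their summed signal was 6840 on the a-SWCNT array and 9588 on the control array. Above 0 were glp-1 (0.26), glh-2 (0.09), pgl-1 (0.14), rme-2 (0.10) and puf-5 (0.27). The lowest were gld-1 (-1.38), cpg-1 (-1.26) and oma-1 (-1.06). The list was not split by stage of germ cell, so it gives no value for the proliferating germ cells that need iff-1. Sperm markers, 7 of 9 measured, lay above 0 in 4 cases and below in 3, gsp-3 (-0.66) and gsp-4 (-0.72) among the lower ones, with a sum of 23325 on the a-SWCNT array and 18960 on the control array. All 4 markers of body wall muscle were below 0, with a sum of 9931 on the a-SWCNT array and 14824 on the control array, and those of intestine, 2 above and 2 below 0, gave 7913 on the a-SWCNT array and 7465 on the control array. All 4 neuronal markers were below 0 by their gene means, with a sum of 3815 on the a-SWCNT array and 4313 on the control array. The probe sets of snb-1 among them pointed in opposite directions, at -0.39 and 0.16. The hypodermal markers split, with dpy-7 (0.14) and rol-6 (0.18) above and che-14 (-0.91) and bli-1 (-2.25) below 0, and a sum of 3076 on the a-SWCNT array and 3636 on the control array. Marker values are given for the main scaling only. In whole worms, fewer cells of a type and less RNA per cell cannot be told apart, and the part of tissue make-up in the factor values was not tested.

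The factors outside these complexes included eif-2A, which can deliver initiator tRNA without eIF2. It had 934 on the a-SWCNT array and 572 on the control array (0.71, 1.63-fold), close to the 0.68 of ife-2, which lay above it after quantile normalisation and loess centring. For eif-2D, also an alternative carrier, the signal was 88.3 on the a-SWCNT array and 81.3 on the control array (0.12). For eif-6, which keeps the large subunit apart from the small one, the signals were 330 and 868 on the a-SWCNT array, against 382 and 692 on the control array, at -0.21 and 0.33. The helicase gene eif-4A3, named with the initiation factors but known as a core protein of the exon junction complex, had 1.72 on the a-SWCNT array and 21.9 on the control array, both below the floor, so no ratio is given.

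Other gene groups of translation were set beside the factors. Cytosolic ribosomal protein genes, 74 measured, had a median of 0.34, with 67 above and 7 below 0, and 31 aminoacyl-tRNA synthetase genes had a median of 0.22, with 23 above and 8 below 0. Neither group had a gene at 2-fold (0 higher, 0 lower), against 1.42% higher and 2.88% lower over all measured genes. At least 1.5-fold higher were 8 of the 74 ribosomal protein genes and 1 of the 31 synthetase genes, against 8.04% of all measured genes. In both groups 0 were at least 1.5-fold lower, against 11.6%. A list of further translation genes holds release factors, poly(A)-binding proteins, kinases of the pathway and mitochondrial factors. It also holds initiation factor genes whose symbols fall outside the member rule, among them inf-1 (-0.46), egl-45 (-0.94) and drr-2 (0.38). Its difference from the members is therefore not a contrast of function alone. The list had a median of -0.01 over 28 measured genes, with 13 above and 15 below 0. Of these 28, 0 were at least 1.5-fold higher, against 8.04% of all measured genes, and 3 were at least 1.5-fold lower, a share near the 11.6% of all measured genes. The initiation factors were thus closest in median to the synthetases. These are descriptions of 2 arrays, without a test of the differences.

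The lowest of the further translation genes was ifet-1, a repressor that binds the cap-binding proteins, with 127 on the a-SWCNT array and 295 on the control array (-1.21). Next came egl-45, which encodes the largest subunit of eIF3. Its probe sets had 165 and 550 on the a-SWCNT array, against 687 and 485 on the control array, with log2 ratios of -2.06 and 0.18. The target-of-rapamycin partner gene daf-15 followed with a mean of -0.87 from probe sets at -0.84 and -0.90. The highest were drr-2 (0.38), a homologue of eIF4H, and the mitochondrial elongation factor genes tufm-1 (0.39) and tsfm-1 (0.46). The gene inf-1 of the helicase eIF4A, the third part of the cap complex, had 2000.5 on the a-SWCNT array and 2748 on the control array (-0.46), a value looked at after the others were seen. Of the cap complex, the scaffold and helicase genes were thus below 0 and the cap-binding genes above it, mostly by small amounts. Except for ife-2, the cap-binding genes were nearer to 0 than the median distance between probe sets of 1 gene. The scaffold value rests on 1 dim probe set of ifg-1, so a split within the complex is not established.

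**Figure D4:**
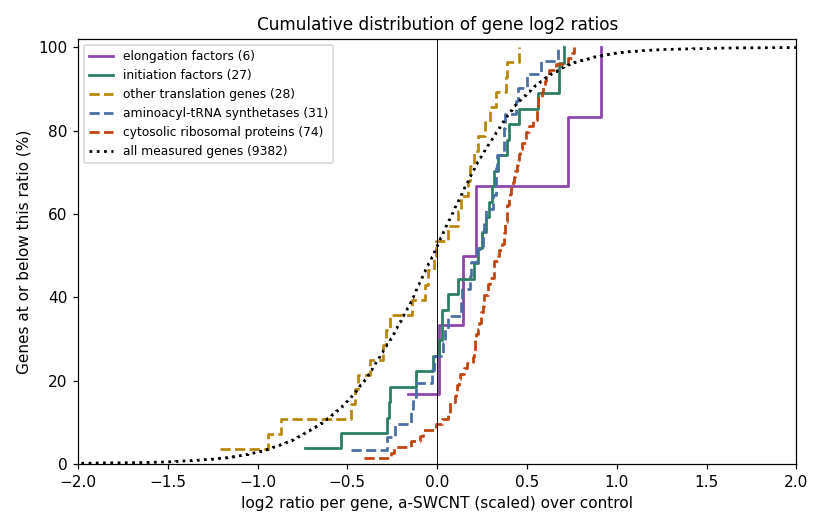
Cumulative share of genes (%) by log2 ratio of a-SWCNT (scaled) over control for 6 elongation factors, 27 initiation factors, 28 other translation genes, 31 aminoacyl-tRNA synthetases, 74 cytosolic ribosomal protein genes and all 9382 measured genes. The curves of both factor classes and of the synthetases lie right of that of all genes around the median, and that of ribosomal proteins lies furthest right there.

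The size of the class medians followed the scaling between the arrays. The initiation median was 0.30 with equal medians, 0.36 with equal 75th percentiles, 0.24 after quantile normalisation and 0.07 with equal hybridisation controls. The elongation median in the same order was 0.25, 0.31, 0.05 and 0.01. In each of these the median of all measured probe sets moved too, to 0.03, 0.08, 0.03 and -0.19. Relative to it, the initiation median lay between 0.20 and 0.28 above in all 6 scalings, and the elongation median between -0.05 (loess centring) and 0.23. Of the 33 genes, 19 stayed above 0 and 6 below 0 in every one of the 6 scalings in which they were measured. The other 8 changed sign, namely eef-1G, eef-2, eif-2beta, eif-2gamma, eif-2D, eif-3.C, eif-3.J and eif-6. Scaling by trimmed means, medians, 75th percentiles or hybridisation controls multiplies the a-SWCNT array by a constant, which moves the ratios nearly together. A sign kept across these scalings reflects distance from 0 and is not repeated support.

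**Figure D5:**
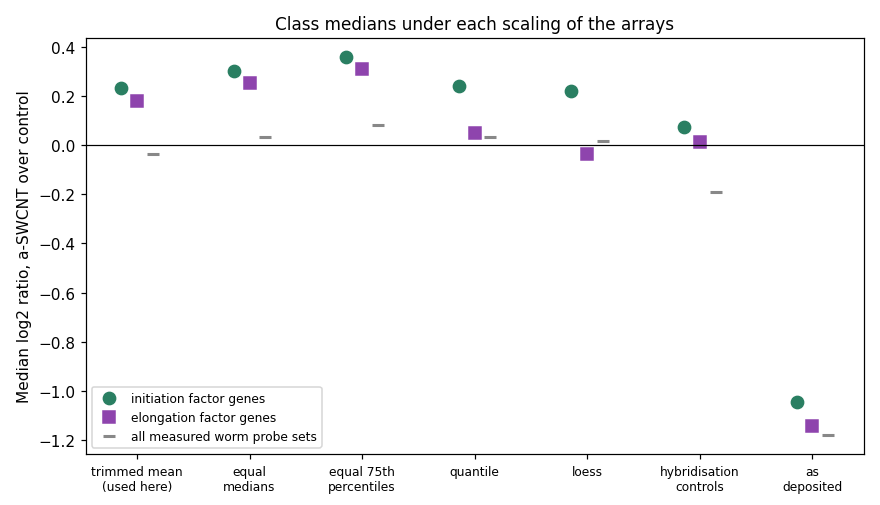
Median log2 ratio of a-SWCNT over control of initiation factor genes (circles), elongation factor genes (squares) and all measured worm probe sets (bars) under each scaling of the arrays. Initiation medians lie above the bar in each scaling, while elongation medians lie close to it after quantile normalisation and below it under loess centring.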

How the data were processed

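Biotin-labelled cRNA from total RNA of whole worms was hybridised to Affymetrix arrays, per the labels' protocols. The authors deposited 1 linear signal intensity for each probe set. The software was MAS5, per the submitters' processing notes, with version and scaling target not given in the sources used here. The table held 22625 probe sets, 77 of them manufacturer's controls. Signals of the a-SWCNT array were multiplied by 2.503, the ratio of the means after trimming 2% of values at each end. They were then floored at 56.7 (percentile 50 of pooled worm signals) and turned into log2 ratios. A gene's value is the mean over its measured probe sets.

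Groups came from the treatment label. Probe sets were named from the platform annotation: 20766 had 1 gene, 887 several and 895 none listed. All 36 member genes were found in the reference table of the WBcel235 assembly under the same symbol. Members, lists and role classes were chosen with earlier results of these data known. Of the 36 names on the list of further translation genes, 5 had no match in that table, older names of elongation factors among them. Named were all elongation factors and ife, ifg and iff genes, the highest and lowest gene of each complex, members past 1.5-fold, and the 3 highest and 3 lowest of the further genes. Others named were chosen after their values were seen. Genes of 1 group were not used as replicates, so no p-value was computed. The scaling and ratios were tested on simulated data. Alternatives covered scaling, floor, probe sets and role classes. Python 3.11.15, numpy 2.4.6, pandas 2.3.3 and statsmodels 0.14.6 were used.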

Additional observations from a re-analysis of the deposited data

How the results depend on the processing

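The signals as deposited, without scaling, gave medians of -1.04 for initiation and -1.14 for elongation factor genes, with 1 factor probe set at least 1.5-fold higher and 41 lower, and 0 and 28 at 2-fold. In them 0 of the 34 factor genes measured lay above 0. The genes at least 1.5-fold higher with the scaling used were then at -0.36 (eef-1A.2), -0.41 (eef-1B.2), -0.62 (eif-2A), -0.65 (ife-2) and -0.65 (iff-1). Against 8 higher and 2 lower factor probe sets at 1.5-fold with the scaling used, equal hybridisation controls gave 5 and 4. The lower count was 1 with equal medians, with equal 75th percentiles and with a floor at the 75th percentile. At 2-fold, against 1 higher and 0 lower, the higher count was 3 with equal 75th percentiles and 2 with quantile normalisation, with a floor at the 25th percentile and with no floor. It was 0 with a floor at the 75th percentile and with probe sets measured on both arrays only. With no floor 1 was at least 2-fold lower. Without letter-suffix probe sets, which left 17 genes, 3 were higher and 1 lower at 1.5-fold and 0 higher at 2-fold, and the difference of class medians was -0.43 in place of 0.05. In that setting the only elongation factors left were eef-1A.2, at 0.09, and eef-1B.2, at 0.91. With a floor at the 25th percentile or none, eef-1A.2 was at 1.21 and ifg-1 at -0.22, as lower signals then count. The other causes were not tested. The difference of class medians was between 0.02 and 0.25 in the other alternatives. Probe sets in place of genes, and the elongation factors without the letter-suffix probe sets of eef-1A.2, were added after the data were examined and gave differences of 0.11 and 0.12. No paired analysis was possible because there was 1 array per group. Dim probe sets near the floor limit what can be said of eif-2D, eif-3.C, eif-3.E, eif-3.H, eif-3.I, ife-4, ife-5 and ifg-1, among others.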
